A study of Mus musculus with 103 samples.

Results

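Neurog1, Neurog2, Neurod1, Neurod4, Atoh1, Olig1, Olig2 and Olig3 are 8 genes for basic helix-loop-helix (bHLH) transcription factors, of 19938 genes measured in laser-captured tissue of the developing mouse face. They were chosen by name, as the proneural and Olig genes of the platform annotation, and each was read by 1 probe set that carries its symbol alone. All groups came from outbred CD1 mouse embryos with no mutation or treatment named, at embryonic day 8.5 (E8.5), E9.5 or E10.5. Frozen sections were cut, regions were taken by laser, and the RNA was amplified before it was hybridised to Affymetrix whole-transcript arrays. All but 1 of 103 samples fell into 22 groups of 4 to 7, with 4 groups at E8.5, 6 at E9.5 and 12 at E10.5.

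Proneural bHLH proteins start the making of neurons. They bind the short DNA motif called the E-box as dimers with widely expressed E proteins, drive precursors out of division, and switch on Notch ligands that hold neighbouring cells back through Hes repressors, while Id proteins block the dimers. Neurog1 and Neurog2 act at the start of this sequence in sensory placodes, cranial ganglia and parts of the neural tube. Neurod1 and Neurod4 act later, in cells already set on becoming neurons. Atoh1 marks other precursors, among them those of the rhombic lip and of hair cells. The Olig proteins are relatives of the proneural group: Olig2 and Olig1 are known from ventral progenitors that give motor neurons and oligodendrocytes, and Olig3 from dorsal progenitors.

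At E8.5 the captured groups were the caudal neural epithelium, the floor plate, the neural epithelium outside the floor plate, and mesenchyme. At E9.5 they were neuroepithelium, otic vesicle (the inner ear primordium), epidermal ectoderm, cranial mesenchyme, and the mandibular and maxillary arches. At E10.5 there were 4 kinds of neuroepithelium: at the central midline, under the lateral nasal prominence, under the medial nasal prominence, and a control region that does not flank the facial prominences, whose place along the neural tube the labels do not give. The other E10.5 groups were the olfactory pit, Rathke's pouch (the pituitary primordium), the lateral nasal eminence, the medial nasal prominence, the 2 arches and the epidermal ectoderm of each arch. The 4 libraries grouped as medial neuroepithelium carry a title that names the lateral prominence, while their tissue label names the medial one. An E9.5 sample labelled both mandibular arch and epidermal ectoderm entered no comparison, and its log2 ratios for the 8 genes lay between -0.27 and 0.09.

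Each value is the log2 of the deposited ratio of a library to the authors' baseline. For every probe set the median over 1 set of 21 libraries, from 19 of the groups, was 1, so that a log2 ratio of 0 stands for that median and 1 for a doubling. The scale compares libraries for 1 gene and gives no order of levels between genes. The labels do not say which embryo a sample came from, so libraries may share an embryo, the spread between them may be partly technical, and p-values may be too small. In captured tissue, fewer cells of a type and less RNA per cell cannot be told apart. Some libraries stood apart. The log2 ratios of 11 arrays had an SD over 0.85 across genes, in a range of 0.40 to 1.35 over all arrays. The otic marker list averaged 0.41 and -0.05 in otic vesicle libraries 3 and 5, against 0.83 to 2.27 in the other 4, and in library 5 the neural marker list averaged 1.61. The E10.5 group labelled epidermal ectoderm of the mandibular arch had mesenchyme markers at 1.36 to 1.74 and surface ectoderm markers at -0.43 to 0.08, against its label, and entered no comparison. The neural marker list averaged 1.30 to 2.43 in the libraries of the 5 neuroepithelium groups of E9.5 and E10.5.

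The stretches before the start sites of Neurog2, Neurod1, Olig3 and Olig2 are shown because these are the genes that differed most between neural regions. Each is the 250 bases before the transcription start in RefSeq (GRCm38.p6), 5′ to 3′ on the gene's strand, with the E-box in capitals.
Neurog2, chr3:127632886-127633135, strand +: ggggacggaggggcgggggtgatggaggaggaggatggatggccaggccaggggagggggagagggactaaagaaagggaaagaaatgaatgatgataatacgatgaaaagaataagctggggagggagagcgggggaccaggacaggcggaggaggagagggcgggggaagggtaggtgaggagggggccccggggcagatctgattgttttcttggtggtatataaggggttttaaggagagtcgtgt
Neurod1, chr2:79456637-79456886, strand -: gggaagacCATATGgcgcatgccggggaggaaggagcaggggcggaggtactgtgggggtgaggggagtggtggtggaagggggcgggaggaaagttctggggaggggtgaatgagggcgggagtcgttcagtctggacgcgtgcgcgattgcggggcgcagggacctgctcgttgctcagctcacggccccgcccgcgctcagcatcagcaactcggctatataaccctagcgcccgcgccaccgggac
Olig3, chr10:19356289-19356538, strand +: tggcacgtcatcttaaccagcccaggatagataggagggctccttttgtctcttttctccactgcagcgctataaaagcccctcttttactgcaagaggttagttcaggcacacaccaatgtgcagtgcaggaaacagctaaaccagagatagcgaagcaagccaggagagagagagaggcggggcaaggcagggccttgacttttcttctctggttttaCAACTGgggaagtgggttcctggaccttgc
Olig2, chr16:91225300-91225549, strand +: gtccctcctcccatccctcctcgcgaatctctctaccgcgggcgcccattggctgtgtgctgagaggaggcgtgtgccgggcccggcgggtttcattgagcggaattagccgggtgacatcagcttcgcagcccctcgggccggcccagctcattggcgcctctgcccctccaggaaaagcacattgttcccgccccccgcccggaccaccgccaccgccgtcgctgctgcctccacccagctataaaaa
The E-box was searched as CANNTG, which reads alike on both strands, in windows of 300 bases, from 250 before to 50 after the start. A window was given for 7 of the 8 members, Olig1 being the exception, and Neurod4 had 2. Of these 8 windows, 4 held a CANNTG, against 72.31% of 32851 windows of all genes. The letters were CACTTG in Neurog1, CATATG in Neurod1, CAGCTG in a window of Neurod4 and CAACTG in Olig3. CAGATG or its reverse complement CATCTG, letters that are also matches to CANNTG, stood in 0 of 8 member windows and in 17.15% of all. CAGCTG stood in 1 of 8 and in 16.3%. These are letters in short windows, and no binding was measured.

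Each of the 8 genes differed somewhere among the 22 groups by the moderated F-test of limma, where 59% of all genes passed. Adjusted p ran from 6.1e-25 for Olig3 and 1.3e-15 for Olig2 to 0.0028 for Neurod4 and 0.042 for Atoh1. The distance between the lowest and the highest group mean was 3.99 on the log2 scale for Olig3, 3.74 for Olig2, 3.16 for Neurod1, 3.12 for Neurog2, 3.05 for Olig1 and 2.33 for Neurog1. For Neurod4 it was 0.71 and for Atoh1 0.44, both below the median of all genes, 0.80. A log2 ratio over 1 was found in 19 libraries for Neurog1, 18 for Olig1, 14 for Neurod1, 13 for Olig2, 8 for Neurog2, 6 for Olig3, 3 for Neurod4 and 0 for Atoh1. Of the 8 genes, Olig3 alone had a step between neighbours in its order of group means that no library crossed: its top group, the E10.5 control neuroepithelium, lay wholly above the next, the E8.5 caudal neural epithelium. In the orders of the other 7 genes, all 21 pairs of neighbouring groups overlapped. The share of all genes with such a step is not given here, so the step cannot be called particular to Olig3.

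**Figure D1:**
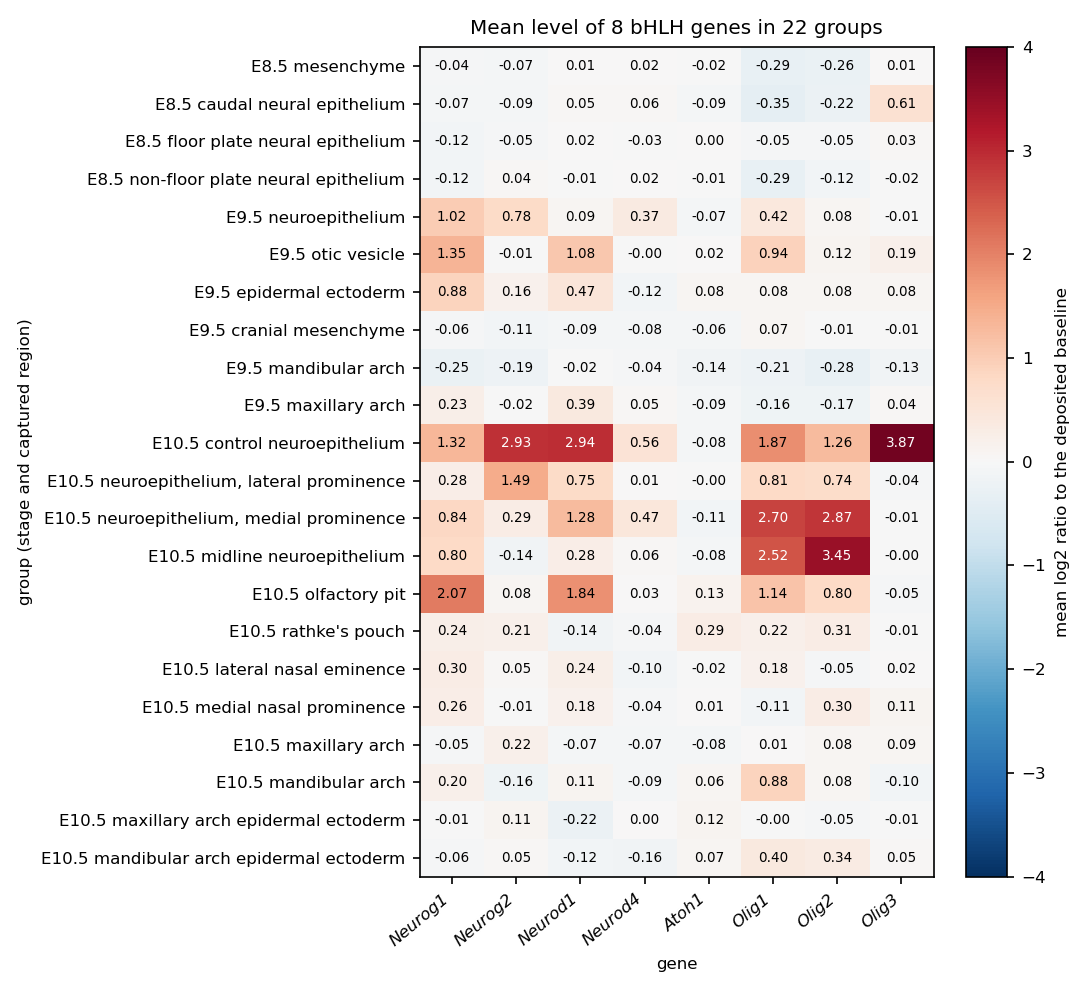
Mean log2 ratio of each gene (columns) in each of the 22 groups (rows), with the value in each cell and red for means above the baseline. Neurog2, Neurod1 and Olig3 are highest in the E10.5 control neuroepithelium (2.93, 2.94 and 3.87), Olig2 is highest at the midline (3.45), and Neurog1 is highest in the olfactory pit (2.07).

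At E8.5 the genes were near the baseline almost throughout. None of the 8 passed the test between caudal and non-floor plate neural epithelium (1.41% of all genes did), between floor plate and non-floor plate (0.181%), or between the 3 neural epithelia and mesenchyme (2.4%). Unadjusted p was under 0.05 for 1475, 905 and 1620 of all genes in these 3 comparisons. Over the 18 libraries of this stage, 1 value exceeded 1: Olig3 stood at 2.15 in caudal library 4, with 0.33, 0.00 and -0.04 in the other 3. The caudal difference of Olig3 was 0.62 ± 0.21 (SE; limma adjusted p = 0.18). In the same comparison 1 of 17 Notch pathway genes was higher, Hes3, by 4.08 (adjusted p 1.8e-10), and 1 of 14 genes of neuronal precursors was higher, Sstr2, by 0.67, and 1 lower, Eya2, by 1.28. None of 12 early neuron genes passed there. Between floor plate and non-floor plate no gene of the 5 pathway lists passed, while 3 of 6 floor plate markers were higher, Nkx2-9 (4.89), Foxa2 (2.39) and Nkx2-2 (1.39). Against mesenchyme, the neural groups were lower for Gadd45g, a growth arrest gene that neurogenins switch on, by 2.26, as 1 of 14 precursor genes, and for the neurofilament gene Nefl, by 2.34, as 1 of 12 early neuron genes.

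In the E9.5 neuroepithelium the neurogenins were above the baseline in some libraries only. Neurog1 stood at -0.28, -0.01, 1.24, 2.86 and 1.29 in libraries 1 to 5. Neurog2 stood at -0.12, -0.09, 0.97, 2.06 and 1.08. Both were high in libraries 3 to 5 and near 0 in libraries 1 and 2. Neurod4 stood at 0.08, -0.08, 1.17, 0.19 and 0.47, highest in library 3. Neurod1 lay between 0.01 and 0.13, and Olig3 between -0.20 and 0.13. Olig1 was at 2.43 in library 1 and between -0.20 and 0.15 in the others. Library 1, high for Olig1, was thus one of the pair that were low for the neurogenins.

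None of the 8 genes passed against the E9.5 cranial mesenchyme, where 1.15% of all genes did and 1425 had an unadjusted p under 0.05. The differences were 1.08 ± 0.42 for Neurog1 (SE; limma adjusted p = 0.36), 0.89 ± 0.26 for Neurog2 (0.067) and 0.45 ± 0.14 for Neurod4 (0.14). With arrays weighted by their quality 3 of the genes passed, and with quantile normalization 2. Of 17 Notch pathway genes 2 passed: Hes5, the repressor that Notch signalling drives in neural progenitors, was higher by 2.33, and Nrarp, a feedback target of Notch, by 1.85. Id4 was higher by 1.64, as 1 of 4 Id genes. Of 12 early neuron genes 2 were higher, Ina (3.63) and Stmn3 (2.93). The median difference was 1.41 over the early neuron list and 0.02 over all genes.

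Against the E8.5 non-floor plate epithelium, again none of the 8 passed (1.06% of all genes did, and 1742 had an unadjusted p under 0.05). Neurog1 differed by 1.14 ± 0.44 (SE; limma adjusted p = 0.30) and Neurog2 by 0.74 ± 0.27 (0.25). With array weights 3 of the genes passed, and with quantile normalization 1. Hes5 rose by 1.83, Nrarp by 2.07 and Id4 by 2.29 between these stages. Of 5 erythroid markers 3 rose as well, among them the embryonic globin gene Hbb-y by 5.64. The part of blood in this comparison was not tested.

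The E10.5 control neuroepithelium held the highest group means of Olig3, Neurog2 and Neurod1 in the series. Olig3 stood at 3.83, 3.99, 4.95 and 2.69 in its 4 libraries. Neurod1 stood at 2.84, 2.81, 3.70 and 2.42. Neurog2 stood at 3.70, 2.45, 3.81 and 1.74. All 4 libraries were high for all 3 genes, library 4 being the lowest each time. Neurog1 was less even, with 3.20 in library 1 and 0.43, 0.65 and 0.99 in the others. Neurod4 stood at 0.45, 0.19, 0.33 and 1.27, highest in library 4. Olig1 stood at 3.33, 1.57, 0.84 and 1.73, and Olig2 at 1.26, 0.67, 0.36 and 2.74, so that both were above the baseline in every library but highest in different ones.

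Compared with the E9.5 neuroepithelium, 3 of the 8 genes rose in the control region, where 0.426% of all genes passed. Olig3 rose by 3.88 ± 0.21 (SE; limma adjusted p = 4.3e-26), 14.7-fold, and Neurod1 by 2.86 ± 0.55 (0.00086), 7.25-fold, with no overlap of libraries for either. The share of all genes without overlap between these groups is not given here. Neurog2 rose by 2.15 ± 0.29 (4.1e-07), 4.43-fold, and its libraries overlapped. The SE pools the spread of 22 groups, many of them near the baseline, and is small beside the spread within the high groups. With the compared groups fitted alone, Olig3 and Neurod1 still passed and Neurog2 did not (adjusted p = 0.40). Without any single library all 3 passed, at 0.012 or less. Olig1 differed by 1.45 ± 0.45 (adjusted p = 0.21), and by 1.95 (0.014) without E9.5 library 1. It also passed with array weights (adjusted p = 0.012).

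No Notch, Id, precursor or other bHLH gene of the lists passed between these groups, where 1129 of all genes had an unadjusted p under 0.05. Of 12 early neuron genes 1 rose, Elavl4, an RNA-binding protein of young neurons, by 1.34 (adjusted p 0.0017). Pax6, a progenitor gene of the forebrain and of dorsal and intermediate cord, was higher in the control region by 3.54 and Nkx2-9, a ventral gene, lower by 2.69. The stage and the place of capture changed together here and cannot be told apart.

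**Figure D2:**
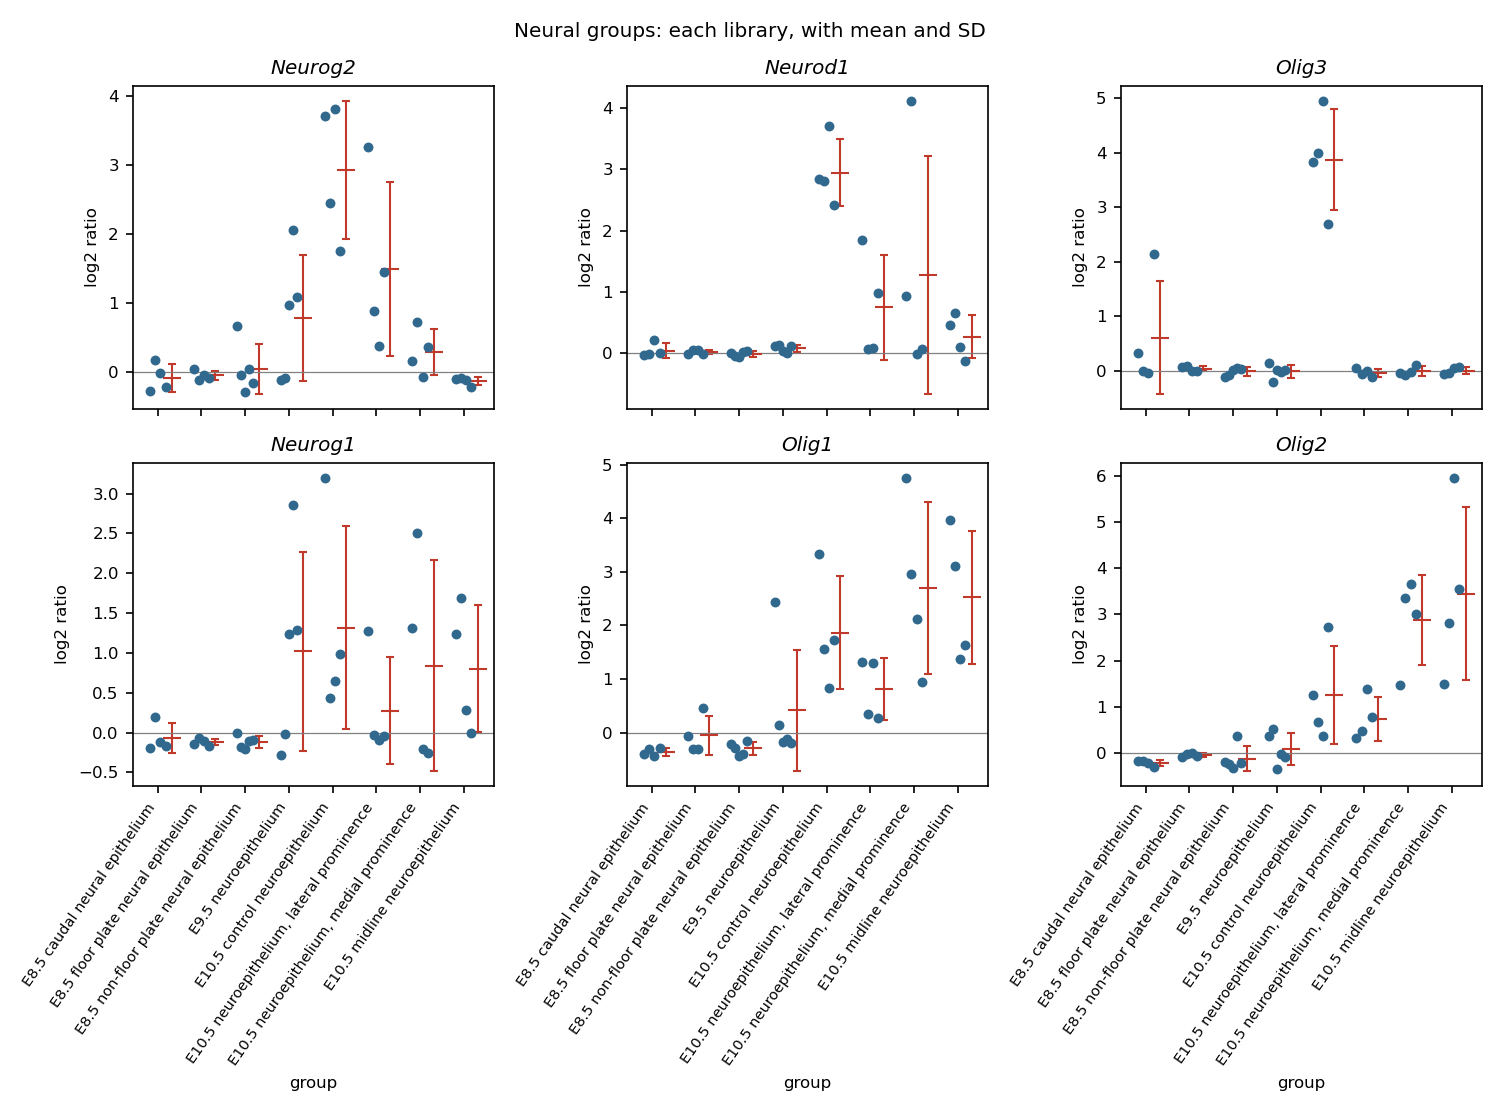
Log2 ratio of 6 genes in every library of the 8 neural groups (points), with the group mean and SD (red) beside them. Olig3 is high in the 4 control libraries and in 1 E8.5 caudal library, while Olig2 is highest at the midline and in the medial group, where Neurog2 stays under 1.

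At the E10.5 midline Olig1 and Olig2 were above the baseline in every library, as in the control region, while Neurog2 and Olig3 were near it. Neurog2 lay between -0.23 and -0.09 in the 4 midline libraries, Olig3 between -0.07 and 0.07, and Neurod1 at 0.46, 0.66, 0.11 and -0.13. Olig2 stood at 1.50, 2.81, 5.96 and 3.55, and Olig1 at 3.97, 3.11, 1.38 and 1.63. The 5.96 of library 3 was the highest Olig2 value of the series, while the highest Olig1 value of this group stood in library 1.

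Against the control region 4 of the 8 genes passed, beside 0.471% of all genes. Olig3 was lower at the midline by 3.87 ± 0.23 (SE; limma adjusted p = 1.6e-24), 14.6-fold. Neurog2 was 8.35-fold lower (adjusted p = 3.6e-12) and Neurod1 6.36-fold lower (0.0049). None of these 3 overlapped between the 2 groups, and the share of all genes without overlap is not given here. Olig2 was higher at the midline by 2.20 ± 0.38 (0.00016), 4.58-fold, though the lowest midline library lay below the highest control library. Fitted on these 8 libraries alone none of the 4 passed, with adjusted p of 0.058 for Olig3 and Neurod1, 0.21 for Neurog2 and 0.99 for Olig2. In the fit over all groups, each of the 4 passed without any single library, at 0.041 or less. Olig1 differed by 0.66 ± 0.48 and Neurog1 by -0.52 ± 0.49, both with overlap and an adjusted p of 1. Neurod4 differed by -0.50 ± 0.17 (0.28).

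Few other genes of the pathway lists passed. Hes5 was higher at the midline by 1.95, as 1 of 17 Notch pathway genes. Isl1, a gene of new motor and sensory neurons, was higher by 4.15, as 1 of 14 precursor genes, and Elavl3, a pan-neuronal RNA-binding protein, by 2.50, as 1 of 12 early neuron genes. Pax6 (-5.23) and Nkx2-2 (-1.30), of ventral progenitors beside the floor plate, were lower at the midline. The median difference over the early neuron list was 0.23 and over all genes 0.03.

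The neuroepithelium under the nasal prominences shared with the midline an Olig3 level near the baseline. Olig3 lay between -0.13 and 0.11 in its 8 libraries, and was lower than in the control region by 3.89 ± 0.19 (SE; limma adjusted p = 8.5e-29), 14.8-fold, with no overlap. Neurog2 was lower by 2.04 ± 0.26 (8.1e-08), 4.11-fold, with overlap. These were 2 of the 8 genes, and 0.296% of all genes passed. How many of all genes had no overlap in this comparison is not given here. Fitted on the compared groups alone, Olig3 still passed and Neurog2 did not (adjusted p = 1). Without any single library Neurog2 passed at 4e-05 or less in the fit over all groups. The midline and the prominence comparisons share the 4 control libraries, so that their values are not independent of each other.

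Neurod1 differed by -1.93 ± 0.50 (adjusted p = 0.065) and passed with array weights (0.010). It also passed without lateral library 1 (-2.11, 0.029) or without medial library 2 (-2.40, 0.001). Without medial library 2, 4 of the 8 genes passed in place of 2. Of the lists, Isl1 (3.42) and Dcx (0.48), a microtubule gene of migrating neurons, were higher than in the control region, and Id3 (-1.27), Pax6 (-2.59) and Nkx2-2 (-1.32) lower.

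Olig2 did not overlap between the 2 groups under the prominences, while Neurog2 and Olig1 did. Neurog2 stood at 3.26, 0.88, 0.37 and 1.44 in the lateral libraries and at 0.15, 0.72, -0.07 and 0.36 in the medial ones. Olig2 stood at 0.32, 0.48, 1.39 and 0.78 in the lateral libraries and at 1.47, 3.37, 3.65 and 3.00 in the medial ones, with no overlap. Olig1 stood at 1.31, 0.35, 1.31 and 0.27 against 4.75, 2.96, 2.12 and 0.95. The groups follow the tissue label, while all 8 titles name the lateral prominence. The share of all genes without overlap between these groups is not given here. The Olig2 difference was not tested, nor was which of the 2 names is right.

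Medial library 2 carried most of the neuronal bHLH signal of its group. It had Neurod1 at 4.11, Neurog1 at 2.51 and Neurod4 at 1.73, the highest Neurod1 and Neurod4 values of the series. Neurod1 in medial libraries 1, 3 and 4 was 0.94, -0.01 and 0.07, and Neurog1 was 1.31, -0.20 and -0.25. The early neuron list averaged 2.20 in library 2, within the 1.66 to 2.30 of the other 3. Its ganglion marker list averaged 0.67, against 0.41 to 0.56 in the other 3, and its olfactory pit marker list 0.96, against 0.02 to 0.18. The part of other tissue in this library was not tested.

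Against the lateral nasal eminence and medial nasal prominence that overlie them, the 2 neuroepithelia were higher in 4 of the 8 genes. This comparison divides neural from mesenchymal tissue, and 20.9% of all genes passed. Olig1 was higher by 1.72 ± 0.34 (SE; limma adjusted p = 0.00018) and Olig2 by 1.68 ± 0.27 (4.5e-06), and both held with the groups fitted alone. Neurog2 was higher by 0.87 ± 0.21 (0.0023), and its adjusted p was 0.074 with the groups alone. Neurod4 was higher by 0.31 ± 0.12 (0.047). It did not pass with the groups alone (0.30), a covariate for each array's 5th percentile (0.26), quantile normalization (0.11), without the arrays of an SD over 0.85 (0.092), with array weights (0.058) or with the 8 neuroepithelium libraries taken as 1 group by their titles (0.056). That call rested on medial library 2, without which the difference was 0.10 (0.45), and it was also lost without 9 other single libraries (0.057 to 0.12): lateral eminence 1, 2 and 4, medial prominence 1 to 4, and lateral neuroepithelium 1 and 3. All 4 genes overlapped between the tissues. Neurod1 differed by 0.80 ± 0.41 (0.15) and Neurog1 by 0.28 ± 0.35 (0.60).

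The counts of the pathway lists in this comparison stand beside the 20.9% of all genes that passed in it. Of 17 Notch pathway genes 6 were higher in the neuroepithelium, among them Mfng (3.01), a modifier of Notch receptors, Nrarp (2.45), Hes5 (2.37) and Hey1 (1.29), and 3 were lower, Jag2, Notch2 and Hes1. Of 12 other bHLH genes 2 were higher, Hes6 (2.04), which counters Hes repressors, and Neurod6 (0.16), and 2 were lower, Atoh7 (-0.80) and Neurod2 (-0.33). Of the 4 Id genes Id4 was higher by 3.18, and Id1 and Id2 were lower by 2.41 and 2.02. Of 14 precursor genes 4 were higher, Isl1 (3.10), Gadd45g (2.62), Btg2 (2.18), an antiproliferative gene of neuron-making divisions, and Insm1 (1.05), and 1 was lower, Ebf3. Of 12 early neuron genes 8 were higher, led by Stmn2 (4.33), Ina (4.27), Stmn3 (3.95) and Elavl3 (2.89), and 0 lower.

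**Figure D3:**
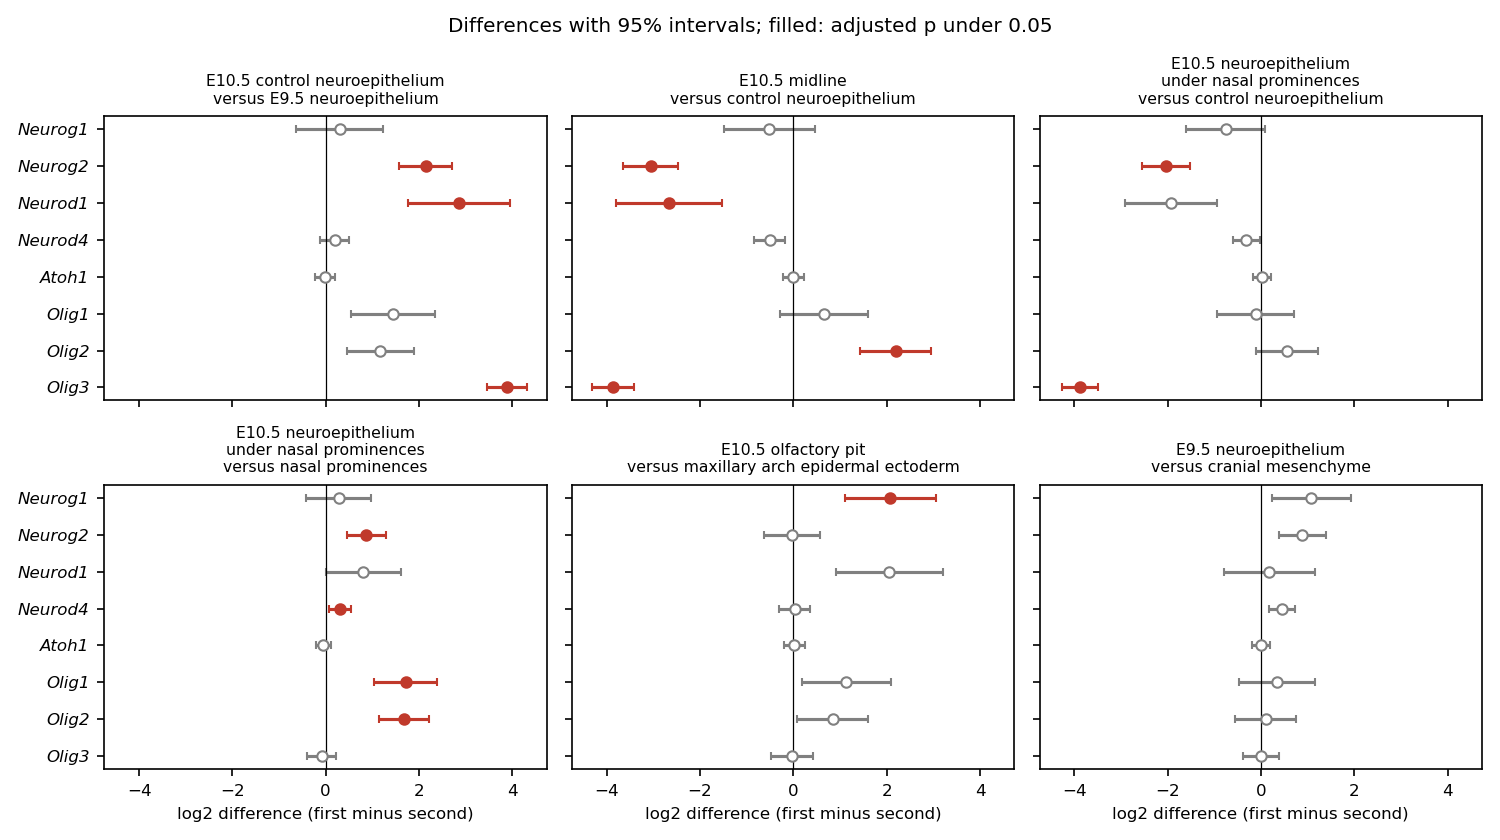
Difference in mean log2 ratio of each gene in 6 comparisons (first group minus second) with 95% intervals from limma, filled where adjusted p was under 0.05. Olig3 moves by nearly 4 in the 3 comparisons with the control neuroepithelium, Olig2 is higher at the midline, and the olfactory pit differs in Neurog1.

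Outside the neural tube, Neurog1 and Neurod1 were highest in the olfactory pit and the otic vesicle, the sensory placodes that shed neurons. In the pit, Neurog1 stood at 3.32, 2.70, 0.96 and 1.30 and Neurod1 at 0.81, 3.88, 2.51 and 0.14. Every pit library was above the baseline for Neurog1, while libraries 2 and 3 carried the Neurod1. Olig1 stood at 0.62, 3.26, 0.46 and 0.21, high in library 2, and Olig2 at 0.97, 0.95, 1.21 and 0.05. The early neuron list averaged -0.35, 2.12, 0.86 and -0.45 in the same 4 libraries, so that libraries 2 and 3, with the Neurod1, were also those with neuronal transcripts. Neurog2 lay between 0.01 and 0.25, Neurod4 between -0.12 and 0.15, and Olig3 between -0.15 and 0.06.

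Neurog1 was higher in the pit than in the maxillary arch epidermal ectoderm by 2.08 ± 0.49 (SE; limma adjusted p = 0.019), 4.23-fold, with no overlap. It was the 1 gene of the 8 that passed, and 0.692% of all genes did. The call was lost without pit library 1 (1.67, adjusted p 0.15), without pit library 2 (1.87, 0.079), without the arrays of wide spread (2.08, 0.10), and with the 2 groups alone (0.39). Neurod1 differed by 2.06 ± 0.57 (0.068), with no overlap, and passed without pit library 4 (2.62, 0.016) or library 1 (2.40, 0.049). For the lack of overlap of both genes, the share of all genes alike in this is not given here.

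Against the nasal prominences the result was alike. Neurog1 was higher by 1.79 ± 0.43 (SE; limma adjusted p = 0.013), 3.46-fold, as the 1 gene of 8 beside 0.913% of all, and its libraries overlapped through a value of 1.04 in medial nasal prominence library 1. The call was lost without pit library 1 (1.38, 0.22) or 2 (1.58, 0.096), without the arrays of wide spread (0.053), and with the compared groups alone (0.19). Neurod1 differed by 1.63 ± 0.50 (0.11) and passed without pit library 4 (2.19, 0.017) or lateral eminence library 3 (1.84, 0.047), in which it stood at 1.53.

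Gadd45g passed in both pit comparisons, by 3.71 against ectoderm and 3.64 against the prominences, as did the bHLH gene Nhlh1, which acts after the neurogenins, by 0.54 and 0.44, and Eya2, a placode gene, by 1.15 and 1.14. Tubb3, the tubulin of neurons, was higher than in ectoderm by 4.08, as 1 of 12 early neuron genes. Hes6 was higher than in the prominences by 2.64 and Hes5 by 1.59. Most genes of the pathway lists did not pass against the prominences. None of the 12 early neuron genes did, with Tubb3 at 2.68 (limma adjusted p = 0.21) and Gap43 at -2.62 (0.11). Among the precursor genes, Isl1 (2.13, 0.21) and Insm1 (1.12, 0.19) did not pass there either. The 2 comparisons share the pit libraries.

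In the otic vesicle, Neurog1 stood at 0.86, 1.23, 0.59, 2.05, -0.04 and 3.42 in libraries 1 to 6, and Neurod1 at 0.28, -0.24, -0.23, 2.81, 0.02 and 3.86. Libraries 4 and 6 were the highest for both genes, and the 4 others lay under 0.3 for Neurod1. Olig1 stood at 0.56, 0.18, 0.12, 1.33, 2.21 and 1.21. The highest Olig1 value, in library 5, was in the library whose neural marker list averaged 1.61 and whose otic list averaged -0.05. Atoh1, which later makes hair cells, lay between -0.15 and 0.44.

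None of the 8 genes passed between otic vesicle and epidermal ectoderm (0.391% of all genes did, and 2209 had an unadjusted p under 0.05). Neurog1 differed by 0.47 ± 0.39 (SE; limma adjusted p = 0.71), with a 95% interval of -0.30 to 1.24, Neurod1 by 0.61 ± 0.45 and Olig1 by 0.86 ± 0.38 (0.36). Isl1 was lower in the vesicle by 2.93, as 1 of 14 precursor genes. Nor did any of the 8 pass against the E9.5 neuroepithelium (0.828% did, and 2049 had an unadjusted p under 0.05), where Neurog2 differed by -0.79 ± 0.26 (0.17) and Neurod1 by 1.00 ± 0.49 (0.48). Without otic libraries 3 and 5, 0 of the 8 passed in either comparison, and with array weights 1, Neurog2, passed in the second. Hes5 was lower in the vesicle than in the neuroepithelium by 2.04, Btg2 by 1.49, and 4 of 12 early neuron genes, Stmn2, Ina, Stmn3 and Nefl, which differed by -4.02, -3.21, -2.87 and -2.26.

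**Figure D4:**
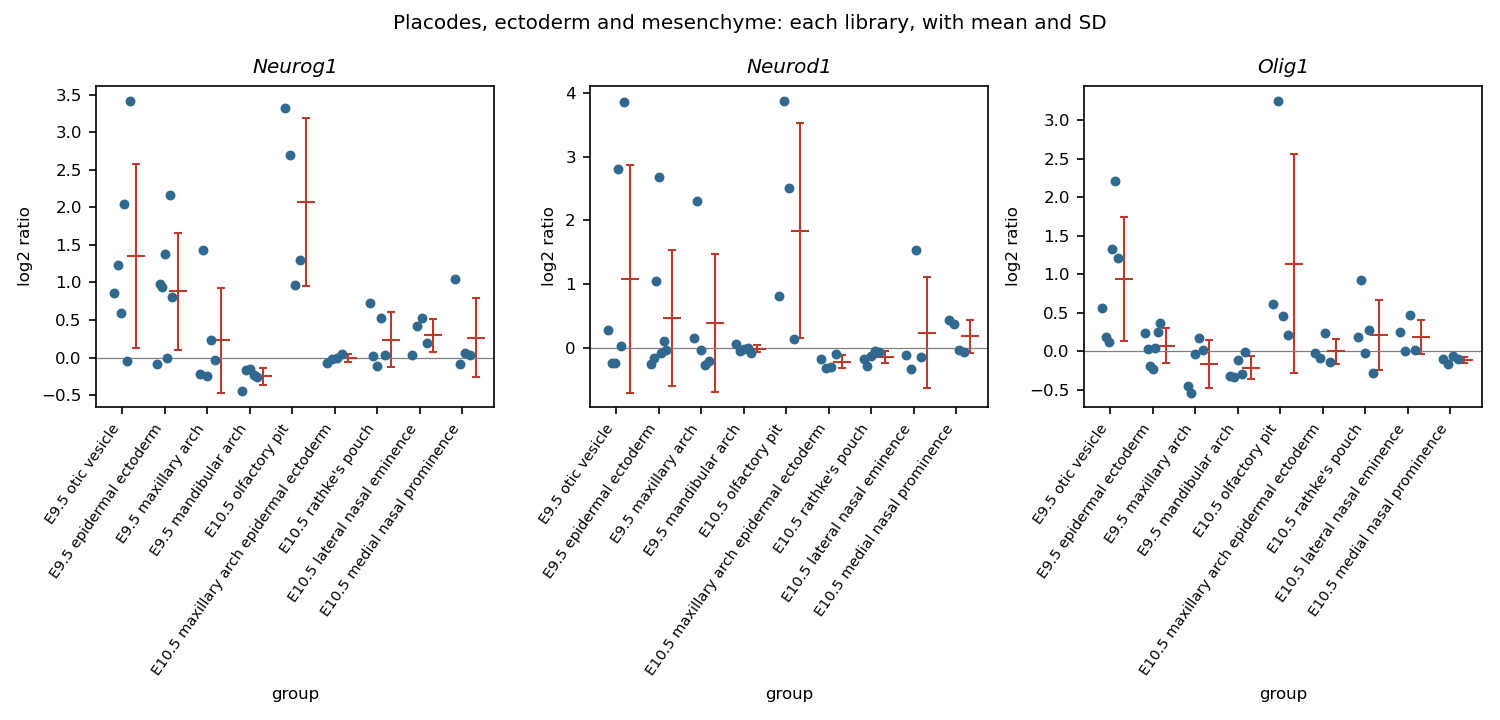
Log2 ratio of Neurog1, Neurod1 and Olig1 in every library of 9 placodal, ectodermal and mesenchymal groups (points), with group mean and SD (red). Neurod1 exceeds 1 in 2 of 6 otic vesicle libraries, 2 of 4 olfactory pit libraries, 2 of the E9.5 ectoderm, and 1 each of the E9.5 maxillary arch and the lateral nasal eminence.

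The E9.5 epidermal ectoderm also held Neurog1, at -0.08, 0.98, 0.94, 1.37, -0.01, 2.17 and 0.81 in libraries 1 to 7. Neurod1 was at 1.05 in library 3 and 2.69 in library 4, and at most 0.10 in the other 5. In comparison with the first arch tissue, where 37% of all genes passed, 2 of the 8 genes did. Neurog1 was higher by 0.89 ± 0.34 (SE; limma adjusted p = 0.034) and Atoh1 by 0.20 ± 0.08 (0.042), both with overlap.

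Both calls were lost with small changes in the samples. Neurog1 lost it without any 1 of 7 libraries (adjusted p 0.053 to 0.12), namely ectoderm 2, 4, 6 and 7, mandibular arch 2, and maxillary arch 1 and 3. Atoh1 lost it without any 1 of 10 (0.054 to 0.10), namely ectoderm 1, 2, 3 and 7, mandibular arch 2, 3 and 6, and maxillary arch 1 to 3. Both were lost without the arrays of wide spread (0.068 and 0.061) and with a covariate for each array's 5th percentile (0.099 and 0.76). The sample with conflicting labels, if taken as ectoderm, also ended both calls (0.074 and 0.067). Maxillary arch library 2 stood apart within its group, with Neurog1 at 1.44 and Neurod1 at 2.30. Its surface ectoderm marker list averaged 0.72, against -0.70 to 0.22 in the other 4 arch libraries. Its ganglion marker list averaged 0.71, within the -0.04 to 0.92 of the other 4. The part of ectoderm in it was not tested.

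Members of the pathway lists also passed in this comparison, as did 37% of all genes. Hes5 (1.58), Hes1 (0.79), Notch1 (0.42) and Notch3 (0.32) were higher in ectoderm, as 4 of 17, and none lower. Of 14 precursor genes 5 were higher, among them Isl1 (1.85) and Eya2 (1.16), and Ebf2 was lower. Of the other bHLH genes 4 of 12 were higher, among them Atoh7 (0.77) and Bhlhe23 (0.57), and 3 were lower, Neurod6 and the E protein genes Tcf12 (-1.49) and Tcf3 (-0.95). Of 12 early neuron genes Cntn2 was higher and Gap43 lower.

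Rathke's pouch, a placode that gives endocrine cells, stayed near the baseline for the neurogenic members. Neurog1 lay between -0.11 and 0.72 and Neurod1 between -0.29 and -0.05 in its 5 libraries. None of the 8 genes passed against the maxillary arch ectoderm (1.63% of all genes did, and 2798 had an unadjusted p under 0.05). For Neurog1 the difference was 0.25 with a 95% interval of -0.68 to 1.18. No gene of the 5 pathway lists passed, while 4 of 6 pouch markers did, Hesx1 (4.89), Six6 (4.07), Pitx1 (3.01) and Lhx3 (1.80). The pouch held the highest Atoh1 values of the series, 0.47 and 0.65 in libraries 1 and 2, both still under 1. The array of library 2 was one of wide spread.

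Values over 1 were then counted by tissue. In the 11 groups other than the neural ones, the otic vesicle, the pit and the E9.5 ectoderm, with 51 libraries, Neurog1 exceeded 1 in 2, Neurod1 in 2 and Olig1 in 1, mandibular arch library 2 at E10.5 with 2.07. The other 5 genes exceeded 1 in 0 of these 51. In the 34 neural libraries the counts were 13 for Olig1, 11 for Olig2, 9 for Neurog1, 8 for Neurog2, 6 for Neurod1, 5 for Olig3 and 3 for Neurod4. Neurog2 exceeded 1 in no other tissue, with 8 of its 8 such libraries neural. Neurog1 and Neurod1 exceeded 1 in 8 and 6 of the 17 libraries of otic vesicle, pit and E9.5 ectoderm. Rathke's pouch and the E10.5 maxillary arch ectoderm, though placode and ectoderm too, were counted among the 11 other groups. The counts depend on this choice of classes, so they describe the libraries and test no difference between tissues.

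Values over 1 were also counted together within libraries. Of the 13 libraries with Olig2 over 1, 11 had Olig1 over 1, as had 11 of the 18 with Olig1 over 1 the other way. Of 14 libraries with Neurod1 over 1, 8 had Neurog1 over 1, 8 had Olig1 and 5 had Neurog2. Of 19 with Neurog1 over 1, 9 had Olig1 and 8 had Neurod1. Of 6 with Olig3 over 1, 5 had Neurod1 over 1, 4 had Neurog2 and 2 had Olig2. Among these 6 were the 4 libraries of the E10.5 control neuroepithelium, all of them over 1 for Neurod1 and Neurog2. Over the 22 group means, which share arrays and amplification, Pearson's r was 0.92 for Olig1 and Olig2, 0.83 for Neurog2 and Olig3, 0.78 for Neurog1 and Neurod1, 0.72 for Neurod1 and Olig3, 0.71 for Neurog2 and Neurod1, 0.37 for Neurog1 and Neurog2, and 0.16 for Olig2 and Olig3. The r values with Olig3 rest largely on 1 group, the E10.5 control neuroepithelium, the only group in which its mean exceeded 1. Olig1 and Olig2 are neighbours in the genome, and their patterns were the most alike of all pairs of members.

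**Figure D5:**
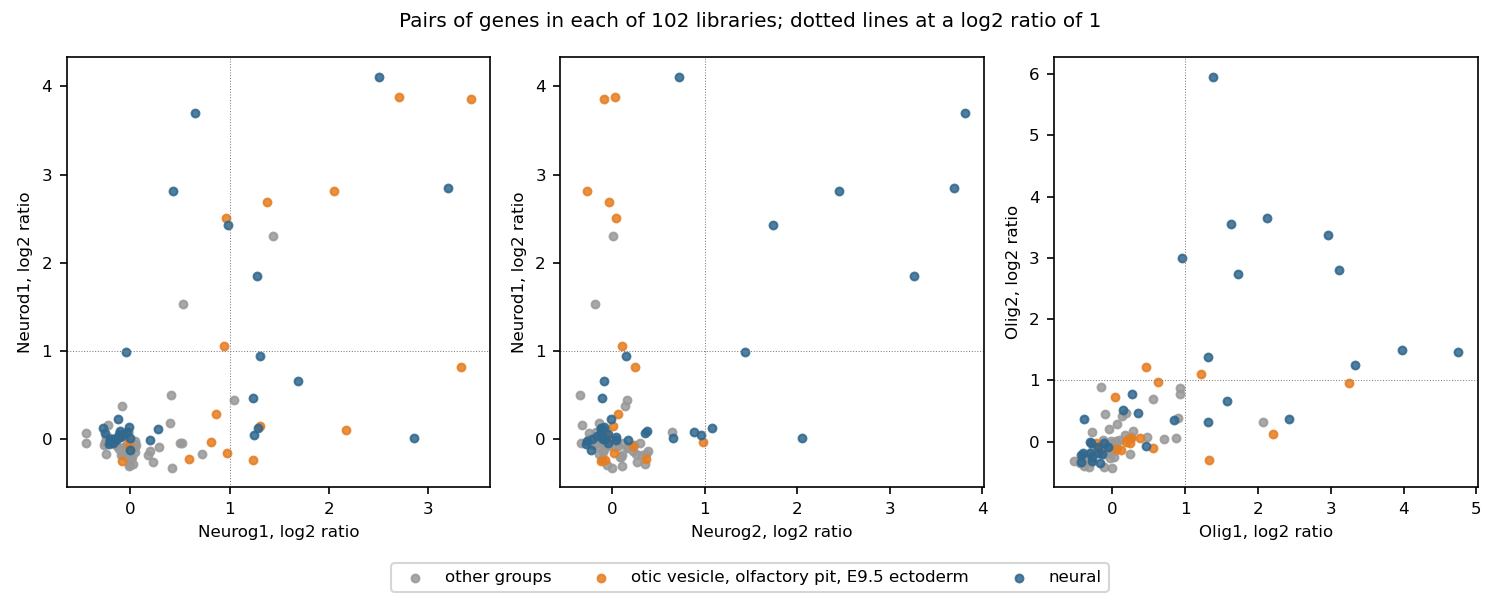
Log2 ratios of 2 genes against each other in each library of the 22 groups, for Neurog1 and Neurod1, Neurog2 and Neurod1, and Olig1 and Olig2, coloured by tissue. Libraries with Neurod1 over 1 and Neurog2 near 0 are mostly of the otic vesicle, olfactory pit or E9.5 ectoderm (orange), and 11 libraries exceed 1 for both Olig1 and Olig2.

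Among all genes, those whose 22 group means followed each member most closely were ranked by Pearson's r. They were Syngr1 (0.80), Neurod1 (0.78) and Rnf208 (0.77) for Neurog1. For Neurog2 they were Cspg5 (0.91), Epha3 (0.90) and Wnt8b (0.86), and for Neurod1 Cspg5 (0.86), Elavl4 (0.80) and Lin7a (0.79). For Olig3 they were Sh2d1a (0.97), Lin7a (0.94) and Wnt8b (0.94). For Olig1 they were Glyctk (0.93), Olig2 (0.92) and Riiad1 (0.88), and for Olig2 Plk3 (0.93), Rgs16 (0.93) and Olig1 (0.92). Neurod4 followed Elavl4 (0.86), Muc1 (0.86) and Zfp318 (0.81), and Atoh1 followed Fcrlb (0.90), Gfra1 (0.89) and Trim72 (0.89). The last 2 sets rest on group means that differ little. Olig3 had a mean over 1 in 1 group and Neurog2 in 2, so that their r values rest largely on those groups.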

How the data were processed

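The values were the linear ratios that the authors deposited for each probe set and sample, made with RMA on build mm9 per the submitters' processing notes, which give no version. Of 35557 probe sets 6701 held no value. Of the 28856 others, 21789 with 1 gene symbol were kept, and for 999 genes with several probe sets that of the highest mean was used. The smallest ratio was 0.01, shared by 62 values, of which 0 were of the 8 genes. The design allowed for log2 levels or ratios, and log2 of the ratio was taken. The number of arrays limits the precision, and no detection call was used. Group means over 102 samples were fitted with limma 3.58.1 in R 4.3.3 (80 residual degrees of freedom, eBayes), and 15 contrasts and an F-test over 22 groups were adjusted by Benjamini-Hochberg over 19938 genes, with calls at 0.05. The fit was tested on simulated data with independent libraries and the same spread for a gene in all groups. That test does not cover libraries that share an embryo or groups of unequal spread. The 5 pathway and 10 marker lists and the members were chosen with earlier results of these data known. The text names all 8 genes, up to 4 called genes of a list by size, and the 3 genes most like each member, leaving out small RNAs, chemosensory receptors and predicted genes. Some genes of these lists are not reported here.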

Additional observations from a re-analysis of the deposited data

Results flagged for a closer look

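There were 176 sets of 1 gene in 1 group. In 22, the distance of a library from its nearest other, as a share of the range, passed Dixon's 95% limit. Chance passes that limit in about 1 of 20 sets if values follow a normal distribution, which was not tested. The share for sets of all genes is not given here, so the count cannot be called particular to these 8 genes. The flagged library was the highest in 21. In 9 sets the gap was 1 or more on the log2 scale. These were Neurog1 in E10.5 lateral neuroepithelium 1 (1.28, others at most -0.03) and E9.5 maxillary arch 2 (1.44). Neurod1 gave E9.5 maxillary arch 2 (2.30) and E10.5 lateral nasal eminence 3 (1.53), and Neurod4 gave E10.5 medial neuroepithelium 2 (1.73). Olig1 gave olfactory pit 2 (3.26) and E9.5 neuroepithelium 1 (2.43). Olig3 gave E8.5 caudal neural epithelium 4 (2.15) and otic vesicle 4 (1.18). Smaller gaps were found for Neurog1 and Atoh1 in medial nasal prominence 1 (1.04 and 0.35). Neurog2 stood at 0.25 in olfactory pit 1, at 0.98 in E9.5 ectoderm 7 and, as the 1 low library, at -0.088 in Rathke's pouch 3. Neurod1 stood at 0.048 in E10.5 mandibular arch ectoderm 2 and at 0.22 in E8.5 caudal epithelium 3, and Neurod4 at 0.051 in E8.5 floor plate 4. Olig1 stood at 0.90 in E9.5 cranial mesenchyme 1. Olig2 stood at 0.36 in E8.5 non-floor plate epithelium 4, at 0.74 in E9.5 ectoderm 2 and at 1.11 in otic vesicle 6. Olig3 stood at 0.68 in E10.5 maxillary arch 4.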

How the results depend on the processing

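None of the 26 followed differences changed sign under the 9 or 11 alternatives run for each, of 13 in all. Nor did any change sign without single libraries (89 libraries left out in turn). Of these 26 differences 17 were called, and the others were all over 1 in size. A stable sign was therefore likely from the choice of differences alone. Of the 15 comparisons, those between E8.5 regions and those of the otic vesicle and Rathke's pouch held no followed difference. Counts of the 8 genes called moved by over 1.5 times as follows. Array weights gave 1 for E8.5 caudal against non-floor plate, 3 for E9.5 neuroepithelium against cranial mesenchyme, 1 for otic vesicle against neuroepithelium and 3 for E9.5 against E8.5 neuroepithelium, each 0 before, and added Neurod1 for prominence neuroepithelium against control (3 in place of 2) and Olig1 for E10.5 control against E9.5 (4 in place of 3). Quantile normalization gave 2 for the second and 1 for the last of these, and the 5th percentile as a covariate 1 for the second. For E9.5 ectoderm against first arch, 2 calls became 0 with the 5th percentile, without arrays of SD over 0.85 and with the sample of conflicting labels as ectoderm, and 1 with the compared groups alone. Both olfactory pit comparisons went from 1 to 0 without the wide arrays and with the groups alone. With the groups alone, the midline comparison went from 4 to 0, prominence neuroepithelium against control from 2 to 1, and against prominences from 4 to 2. With the replicate number as a block (fitted on the compared groups alone) 0 genes passed for E9.5 ectoderm, both pit comparisons, the midline and E10.5 control against E9.5 neuroepithelium. The numbers did not pair the samples: same-numbered deviations correlated at -0.26 to 0.47, in 0 of 10 comparisons all over 0.1, and 11 of 45 pairs correlated best with their own number. No block was run for the medial neuroepithelium, whose numbers follow accession order. Leaving out single libraries gave 0 to 1 calls for caudal epithelium and for otic vesicle against neuroepithelium, and 0 to 2 for E9.5 neuroepithelium against mesenchyme, E9.5 ectoderm and both pit comparisons. It gave 2 to 4 for prominence neuroepithelium against control, 3 to 4 against prominences and for E10.5 control against E9.5, and 4 throughout for the midline. Groups of 4, the amplification of small captures and a pooled spread limit these values.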
